A study of Mus musculus with 8 samples.

Results

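The genes described here are the splicing factors and heterogeneous nuclear ribonucleoproteins (hnRNPs) of mouse liver, chosen by their symbols: the Hnrnp, Srsf, Sf3a, Sf3b, Snrp, Prpf and U2af families. These were 66 of the 16133 genes in the authors' deposited table, after Hnrnpc and Hnrnpa2b1, which the rule leaves out. They fell into 18 hnRNPs, 11 SR proteins, 3 U2AF genes, 9 SF3A and SF3B subunits, 12 Snrp genes and 13 Prpf genes. The mice were METTL14Alb (here KO) and METTL14f/f (here WT). The METTL14 protein pairs with METTL3 to form the core of the enzyme that places N6-methyladenosine (m6A) on mRNA. The suffix Alb is the usual shorthand for a Cre recombinase driven by the albumin promoter, which acts in hepatocytes, though the labels do not spell this out. Both genotypes received tunicamycin, an inhibitor of N-linked glycosylation that stresses the endoplasmic reticulum, at 2 mg/kg into the peritoneum for 24 hours, and no untreated liver was analysed here. Polyadenylated liver RNA was sequenced directly (input) or once precipitated by an antibody to m6A (IP), and KO input, KO IP, WT input and WT IP had 2 libraries each. The labels do not say whether replicates came from separate mice, so a p-value here reflects the spread between libraries, which may be technical.

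Splicing removes introns in steps that these families carry out. U2AF marks the end of the intron, and the SF3A and SF3B complexes of the U2 particle then bind its branch point. The Snrp genes encode the Sm ring and specific proteins of the small nuclear ribonucleoprotein particles, and many Prpf proteins belong to the U4/U6.U5 particles that bring in the active site. SR proteins and hnRNPs bind exons and introns and bias which splice sites are used. Many hnRNPs also bind mature mRNA, and several of them have been described as binding RNA whose folding m6A alters.

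The KO input libraries A and B held an estimated 12664111 and 12316863 reads, and the WT ones 16814204 and 13503902, where the letters only name libraries. Mettl14 itself had 64.6 and 62.0 normalized counts in KO A and KO B, against 79.8 and 99.7 in WT A and WT B. Its log2 change in the authors' deposited table was -0.50 ± 0.41 (SE; DESeq2 adjusted p = 0.342), and 0.32 once the libraries were scaled to equal total counts, so the targeted gene did not pass the test. Hepatocyte markers were present at means of 19728 to 349244 normalized counts, and 6 of 8 were lower and 1 higher in KO, with a median log2 change of -1.96 by the authors' size factors. Their counts per library were above the range that could be recovered. Of 5 bile duct markers 4 were higher in KO, and their summed level was 4064 and 3096 in KO against 637 and 773 in WT. Of 3 markers of cycling cells 2 were higher, summing to 542 and 271 in KO against 15.1 and 8.08 in WT. Stellate markers were higher for 2 of 5 genes, summing to 7874 and 5556 in KO against 3591 and 2844 in WT. Of 5 macrophage markers 1 was higher and 1 lower (sums 3851 and 3730 in KO against 2903 and 2169 in WT), and none of 4 endothelial markers (1450 and 1315 in KO against 1295 and 861 in WT) or 3 leukocyte markers (178 and 157 in KO against 121 and 151 in WT) passed. No marker that was measured was at 0 on average, and the leukocyte marker Ly6g was not analysed here. Of all tested genes, 20.4% were higher and 22.2% lower by the same test. By the authors' size factors, the summed markers of each type other than hepatocytes were higher in both KO libraries than in both WT libraries. The markers thus moved with the genotype beside every result given here, and their part in the results was not tested. In bulk liver, fewer cells of a type and less RNA per cell cannot be told apart.

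Of the 65 members that were tested, 5 were higher and 13 lower in KO at a DESeq2 adjusted p under 0.05, a rule called here a call, and 47 were not called. Higher were Prpf40b, Prpf4, Hnrnpa0, Hnrnpdl and Sf3b3, and lower were U2af1, U2af1l4, Sf3b1, Sf3b2, Sf3b6, Prpf6, Prpf8, Snrpd2, Srsf4, Srsf5, Hnrnpl, Hnrnph2 and Hnrnpul2, of which 10 have a positive change once libraries are scaled to equal total counts. The called share was 27.7%, beside 42.5% of all 14257 tested genes (20.4% higher and 22.2% lower) and 49.4% of the 9174 tested genes within the members' range of mean counts (75.5 to 3145). The size of the changes was also below that of genes with like means. The median size of the log2 change was 0.37 in the members, 0.60 in genes of like mean and 0.71 in all tested genes, and 2 of 65 members (3.08%) changed at least 2-fold, beside 27.8% of genes of like mean. Libraries of the genotypes did not overlap for 19 of 65 members that were higher and 35 that were lower in KO. Among 9171 genes of like mean, 3433 did not overlap and were higher, and 3984 did not overlap and were lower (80.9% together). Called genes were chosen by a test on these same libraries, so a lack of overlap in them, where given below, adds no support. Only Srsf12 was not tested, with a mean of 1.09 normalized counts.

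The direction of most of the lower calls rests on how the libraries are scaled. Equal totals raise every change by nearly the same amount, so members called higher had to stay positive. Their direction is thus not tested by that scaling. By the authors' size factors the members' median log2 change was -0.23, beside -0.07 in genes of like mean and 0.05 in all tested genes, and 43 of 65 members had a negative change. Scaled to equal total counts, the median of all genes moved from 0.07 to 0.87 in limma, and that of the members moved to 0.60, beside 0.75 in genes of like mean. With that scaling limma called 44 members higher and 0 lower in KO (47 and 0 at an unadjusted p under 0.05), beside 58.7% of all genes higher and 7.56% lower. At an adjusted p under 0.05 limma with the authors' size factors called 9 members higher and 20 lower of 65, beside 25.3% and 24.0% of all genes. Of 9171 genes of like mean it called 2386 higher and 2792 lower. With KO A left out the members' median log2 change in limma was -0.22, and with KO B left out it was -0.15. Members together took 0.404% and 0.392% of the estimated reads of KO A and B, against 0.264% and 0.267% of WT A and B. Their summed normalized counts were 40780 and 40994 in KO against 47893 and 48545 in WT. Of the estimated totals, 8108710 and 8044688 reads in KO and 8344726 and 6722911 in WT were recovered. The rest are genes without recovered counts, entered at the mean of their genotype from the deposited values. Equal-total scaling uses the same totals. The members' median lay below that of all genes. The choice of scaling could not alter that order, since it moves all genes by nearly the same amount. Levels and changes are given on the scale of the authors' size factors unless stated.

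**Figure D1:**
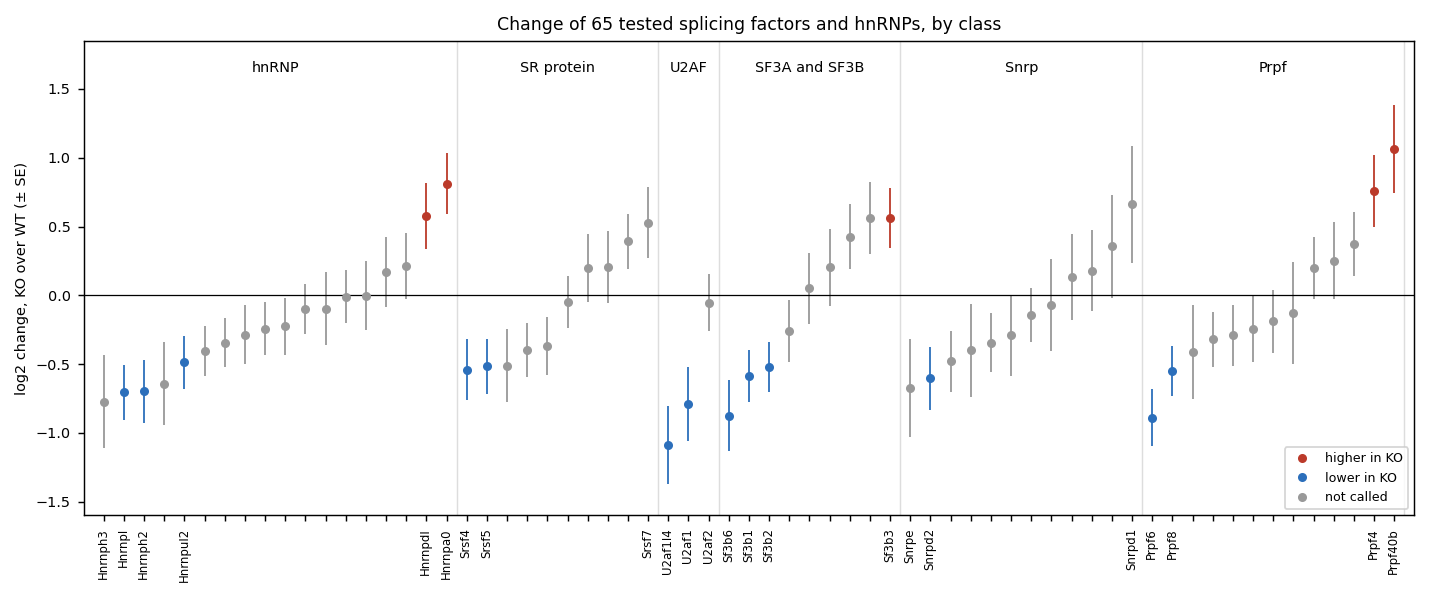
Log2 change in KO over WT (vertical axis, with the standard error from the authors' deposited table) for the 65 tested members, grouped by class. Names are given for called members and for the lowest and highest change of each class. Red marks the 5 called higher, blue the 13 called lower and grey the 47 not called, and most points lie between -1 and 1. Scaled to equal total counts only Prpf6, Sf3b6 and U2af1l4 keep a negative change.

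**Figure D2:**
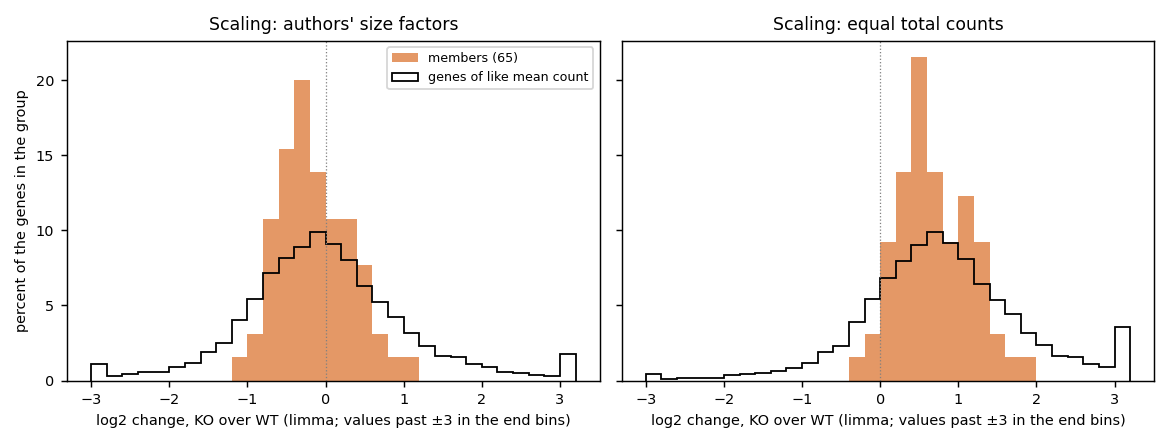
Share of genes (vertical axis, percent) at each log2 change in KO over WT, for the members (filled) and for tested genes of like mean count (outline), with the authors' size factors on the left and equal total counts on the right. The members form the narrower peak. The second scaling shifts members (median -0.22 to 0.60) and other genes (median -0.06 to 0.75) alike, so the widths could not differ between panels.

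The 4 members with the largest called changes in each direction, among those with an entry in RefSeq's promoter table, are given as the 100 bases before their RefSeq start (GRCm38.p6), because these genes carry the extremes of the results in both directions. Capitals mark, on either strand, the letters CCAAT of a CCAAT box, CCGGAAG of a site for ETS factors, GGGCGG of a GC box, TGACGTCA of a cAMP response element and TATAAA of a TATA box. In U2af1 the CCAAT box and its reverse complement overlap, and in Sf3b6 a GC box and an ETS site adjoin. The start used for Prpf40b, Prpf4, Hnrnpdl and U2af1 lies inside the annotated span of the gene. Bases shown just before it thus also fall within that span. The first 4 genes were higher in KO and the last 4 lower. They lie at chr15:99295141-99295240 (plus strand), chr13:58128557-58128656 (minus), chr4:62408683-62408782 (plus), chr5:100039223-100039322 (minus), chr7:30563240-30563339 (plus), chr2:181601219-181601318 (plus), chr12:4817508-4817607 (plus) and chr17:31658765-31658864 (minus).
Prpf40b: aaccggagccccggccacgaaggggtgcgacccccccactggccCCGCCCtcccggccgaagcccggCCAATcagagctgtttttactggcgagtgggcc
Hnrnpa0: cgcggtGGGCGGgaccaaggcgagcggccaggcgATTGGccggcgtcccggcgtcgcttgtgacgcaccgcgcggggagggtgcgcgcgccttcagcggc
Prpf4: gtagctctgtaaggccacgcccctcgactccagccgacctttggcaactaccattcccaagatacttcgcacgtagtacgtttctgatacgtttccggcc
Hnrnpdl: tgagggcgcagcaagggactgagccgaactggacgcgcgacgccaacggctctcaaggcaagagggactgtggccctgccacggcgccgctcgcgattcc
U2af1l4: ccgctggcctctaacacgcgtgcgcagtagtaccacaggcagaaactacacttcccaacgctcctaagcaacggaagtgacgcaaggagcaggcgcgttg
Prpf6: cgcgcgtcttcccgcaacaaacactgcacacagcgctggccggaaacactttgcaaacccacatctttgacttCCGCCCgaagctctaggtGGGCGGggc
Sf3b6: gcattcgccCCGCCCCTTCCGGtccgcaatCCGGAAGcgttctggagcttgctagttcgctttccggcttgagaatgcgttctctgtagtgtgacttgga
U2af1: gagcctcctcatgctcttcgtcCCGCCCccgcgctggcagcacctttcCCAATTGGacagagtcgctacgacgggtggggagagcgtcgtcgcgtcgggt

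Over the 250 bases before the start, 57 members had an entry. GGGCGG was found in 39 of them (68.4%), beside 33.0% of all 27025 promoters and 56.8% of those of tested genes. CCAAT was found in 26 (45.6%), beside 34.5% of all promoters and 36.4% of those of tested genes. CCGGAAG was found in 17 (29.8%), beside 7.07% and 13.1%. The remaining motifs were rarer, with TATAAA in 5 members (8.77%, beside 13.0% and 7.02%) and TGACGTCA in 2 (3.51%, beside 1.60% and 2.68%). The ER stress element, a CCAAT box followed at a fixed distance by a second short block, was found in the promoter of 1 member, Hnrnpa3 (1.75%, beside 0.122% and 0.168%). A match is a string of letters and not a binding site.

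U2AF is the pair of proteins that reads the end of the intron, and 2 of its 3 genes were called lower and 0 higher in KO, by DESeq2 and by limma with the authors' size factors and also at an unadjusted p under 0.05, with a class median of -0.79, which was 0.03 when libraries were scaled to equal total counts. U2af1 encodes the small subunit, which contacts the AG at the 3′ splice site. It had 175 and 202 normalized counts in KO A and KO B, against 314 and 338 in WT A and WT B. The 2 genotypes did not overlap, and the authors' deposited table gave a log2 change of -0.79 ± 0.27 (DESeq2 adjusted p = 0.00912), which was 0.03 with equal totals. U2af1l4, a relative of the small subunit, had 129.9 and 146 normalized counts in KO, against 314 and 273 in WT. Its log2 change of -1.09 ± 0.28 in the authors' deposited table (DESeq2 adjusted p = 0.000497) was the most negative of all members and was -0.27 with equal totals (limma adjusted p = 0.215). The gene overlaps Psenen in the RefSeq annotation, so its reads may include some from that neighbour. U2af2, the large subunit, which binds the polypyrimidine tract, had 891 and 765 normalized counts in KO against 904 and 813 in WT. Its genotypes overlapped, with a change of -0.05 ± 0.21 in the authors' deposited table (DESeq2 adjusted p = 0.869) and of 0.77 with equal totals (limma adjusted p = 0.00275).

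The SF3A and SF3B subunits, which lock the U2 particle onto the branch point, had called members in both directions: 1 higher and 3 lower of 9 by DESeq2 (3 and 3 by limma), with a class median of 0.05 (0.87 with equal totals). Sf3b6 is the small subunit that lies near the branch adenosine. It had 205 and 202 normalized counts in KO A and KO B, against 396 and 350.1 in WT A and WT B. Both KO libraries were below both WT libraries, and the change in the authors' deposited table was -0.87 ± 0.26 (DESeq2 adjusted p = 0.00231). Sf3b1, the large subunit that closes around the branch helix, had 1263 and 1307 normalized counts in KO against 2046 and 1810 in WT. Its log2 change in the authors' deposited table was -0.59 ± 0.19 (adjusted p = 0.00610). Sf3b2, which contacts the pre-mRNA beside it, had 1672 and 1748 normalized counts in KO against 2593 and 2311 in WT, again without overlap. The authors' deposited table lists it at -0.52 ± 0.18 (adjusted p = 0.0137). With equal total counts these 3 changes were -0.05, 0.24 and 0.30.

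Sf3b3, the scaffold subunit of the same complex, was called in the opposite direction. It had 881 and 896 normalized counts in KO A and KO B, against 528 and 677 in WT A and WT B. The groups did not overlap, and the log2 change in the authors' deposited table was 0.56 ± 0.22 (DESeq2 adjusted p = 0.0265), against 1.39 with equal totals. Sf3b3 overlaps Cog4 in the annotation. The other 5 subunits were not called, with log2 changes of -0.26 (Sf3b5) to 0.56 (Sf3b4) in the authors' deposited table. Sf3b4, another branch-point protein, came nearest, at 308 and 331 normalized counts in KO against 204 and 230.3 in WT (adjusted p = 0.0732, limma adjusted p = 0.0231). Sf3a1, Sf3a2 and Sf3a3, the subunits of SF3A, had changes of 0.43, 0.05 and 0.20 and none was called by DESeq2, while limma called Sf3a1 (adjusted p = 0.0381).

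Of 13 Prpf genes 2 were higher and 2 lower, with a class median of -0.19 (0.63 with equal totals). Prpf6, which bridges U5 and U4/U6, had 544 and 577 normalized counts in KO A and KO B, against 1089 and 986 in WT A and WT B. With -0.89 ± 0.20 it had the smallest adjusted p of all members in the authors' deposited table (DESeq2 adjusted p = 7.61e-05), and its change with equal totals was -0.07 (limma adjusted p = 0.663). Prpf8, the large U5 protein at the active site, had 2129 and 2062 normalized counts in KO against 2872 and 3272 in WT. The groups did not overlap, and the change was -0.55 ± 0.18 in the authors' deposited table (DESeq2 adjusted p = 0.00784), against 0.27 with equal totals.

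Prpf4, a U4/U6 protein, had 334 and 373 normalized counts in KO A and KO B, against 193 and 226 in WT A and WT B. Its log2 change in the authors' deposited table was 0.76 ± 0.26 (DESeq2 adjusted p = 0.0118). Both KO libraries thus lay above both WT libraries, which was also so for Prpf40b, a relative of a yeast U1 protein. Prpf40b had 369.8 and 381 normalized counts in KO, against 237 and 119.9 in WT, so that the WT libraries differed from each other by more than 1.5-fold. At 1.06 ± 0.32 (adjusted p = 0.00295) it had the largest positive change of all members in the authors' deposited table. Its change in limma was 1.64 without WT A and 0.66 without WT B, and it overlaps Fam186b in the annotation. With equal totals these changes were 1.57 and 1.97. The other 9 Prpf genes ranged from -0.41 (Prpf38a) to 0.37 (Prpf31) and were not called.

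The Snrp genes, which encode the Sm ring and proteins of single particles, had 0 members higher and 1 lower of 12 by DESeq2 (0 and 3 by limma, and 0 and 2 by DESeq2 at an unadjusted p under 0.05), with a class median of -0.22 (0.61 with equal totals). Snrpd2, a protein of the Sm ring, had 344 and 364 normalized counts in KO A and KO B, against 569 and 506 in WT A and WT B. The groups did not overlap, and the change in the authors' deposited table was -0.60 ± 0.23 (DESeq2 adjusted p = 0.0226), against 0.22 with equal totals. The ring proteins Snrpe and Snrpd1 had the largest changes of the class without a call. Snrpe had 83.7 and 90.9 normalized counts in KO against 155 and 123 in WT (adjusted p = 0.115, limma adjusted p = 0.0483). Snrpd1 had 86.1 and 98.6 normalized counts in KO against 48.5 and 68.7 in WT (adjusted p = 0.208, limma adjusted p = 0.0899). Changes of the 12 Snrp genes ranged from -0.67 to 0.66 in the authors' deposited table, and all 12 were positive with equal totals. Small Snrp genes have near-identical copies elsewhere in the genome, and Snrpn resembles Snrpb, so reads may be split among copies.

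SR proteins bind exonic enhancers through RNA recognition motifs and carry an arginine and serine rich tail. Of 10 tested, 0 were higher and 2 lower by DESeq2 (2 and 4 by limma, and 2 and 3 by DESeq2 at an unadjusted p under 0.05), with a class median of -0.21 (0.61 with equal totals). Srsf5 had 1407 and 1813 normalized counts in KO A and KO B, against 2338 and 2269 in WT A and WT B. Its KO libraries differed from each other, yet both lay below WT, and the change in the authors' deposited table was -0.52 ± 0.20 (DESeq2 adjusted p = 0.0252). Srsf4 had 417 and 410.4 normalized counts in KO against 620.0 and 582 in WT. Its change was -0.54 ± 0.22 in the authors' deposited table (DESeq2 adjusted p = 0.0357), and its annotation overlaps Gm12992. With equal totals the changes of Srsf5 and Srsf4 were 0.29 and 0.28. Srsf7 had the largest positive change of the class and was not called, at 392 and 434 normalized counts in KO against 245 and 329.9 in WT (adjusted p = 0.0877, limma adjusted p = 0.0438). Its change in limma was 0.54, and 0.32 without WT A. Srsf1, Srsf2, Srsf3, Srsf6, Srsf9, Srsf10 and Srsf11 were not called, with changes of -0.51 (Srsf9) to 0.39 (Srsf1) in the authors' deposited table.

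The hnRNPs had 2 members higher and 3 lower of 18 by DESeq2 (2 and 6 by limma, and 2 and 6 by DESeq2 at an unadjusted p under 0.05), and 14 of 18 had a negative change, with a class median of -0.23 that was 0.59 with equal totals. Hnrnpl, which binds CA repeats, had 869 and 827 normalized counts in KO A and KO B, against 1483 and 1281 in WT A and WT B. The authors' deposited table lists it at -0.70 ± 0.20 (DESeq2 adjusted p = 0.00147). Hnrnph2, which binds runs of G, had 319.6 and 332 normalized counts in KO against 537 and 519.8 in WT. Its change was -0.70 ± 0.23 in the authors' deposited table (DESeq2 adjusted p = 0.00713), and as a close relative of Hnrnph1 and Hnrnpf it may share reads with them. Hnrnpul2, a relative of the scaffold protein Hnrnpu, had 1123 and 996 normalized counts in KO against 1437 and 1533 in WT (-0.49 ± 0.19, adjusted p = 0.0307, in the authors' deposited table). None of these 3 overlapped between genotypes, beside 80.9% of genes of like mean without overlap. With equal totals the changes of the 3 were 0.12, 0.12 and 0.33. Hnrnph3 had the most negative change of the class, at 83.7 and 103 normalized counts in KO against 165 and 154 in WT, and was not called (adjusted p = 0.0525, limma adjusted p = 0.0216).

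Hnrnpa0, which binds AU-rich elements, had 737 and 715 normalized counts in KO A and KO B, against 379.5 and 449.8 in WT A and WT B. Its log2 change in the authors' deposited table was 0.81 ± 0.22 (DESeq2 adjusted p = 0.00103), the largest of the class. Hnrnpdl, a paralog of Hnrnpd, had 439 and 446 normalized counts in KO against 317 and 276 in WT, with a change of 0.58 ± 0.24 in the authors' deposited table (DESeq2 adjusted p = 0.0408). Groups did not overlap in either gene, and Hnrnpdl overlaps Enoph1 in the annotation. With equal totals the 2 changes were 1.63 and 1.40. Hnrnpd had 363 and 356 normalized counts in KO against 408 and 311 in WT, and was named after its values were seen. Its genotypes overlapped.

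**Figure D3:**
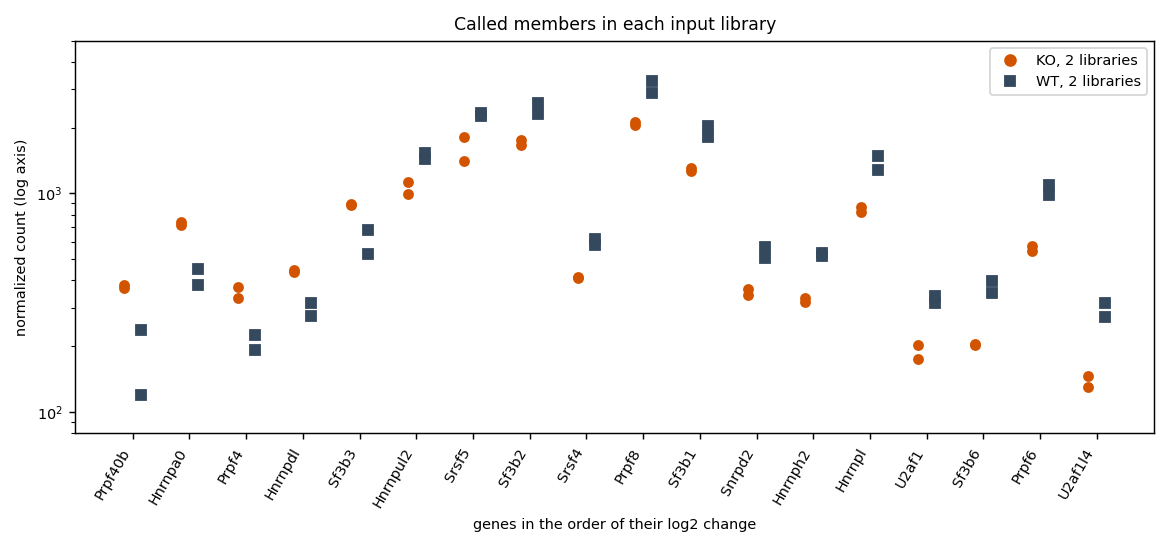
Normalized counts (log axis) of the 18 called members in each input library, with the KO libraries as circles left of the WT libraries as squares. In the 5 genes at the left both circles lie above both squares, in the other 13 below. The genes were called on these same libraries, and 80.9% of genes of like mean also do not overlap. The largest gap between 2 libraries of a genotype is that of Prpf40b in WT. Scaled to equal total counts, 10 of these 13 have a positive change.

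Among the 105 other splicing genes in 3 lists, 6 were higher and 16 lower in KO (21.0% called), with a median of -0.19 (0.63 with equal totals). The 47 other particle and spliceosome proteins had 0 higher and 6 lower by DESeq2 (1 and 9 by limma, and 1 and 8 by DESeq2 at an unadjusted p under 0.05), with a median of -0.31 (0.51 with equal totals). The 27 SR kinases, SR-related and exon junction proteins had 3 higher and 4 lower, and the 31 regulators of alternative splicing 3 higher and 6 lower. Sap18, an exon junction protein, had 332 and 347 normalized counts in KO against 764 and 766 in WT, with a change of -1.17 (DESeq2 adjusted p = 4.75e-07) in the authors' deposited table. Cwc15, a protein of the active spliceosome, had 498 and 416 normalized counts in KO against 951 and 992 in WT (-1.09, adjusted p = 2.55e-06, in the authors' deposited table). Bud31, which joins the same spliceosome, had 396 and 405 normalized counts in KO against 794 and 896 in WT (-1.08, adjusted p = 3.69e-06, in the authors' deposited table). These 3 had the smallest adjusted p of the genes that were lower, their genotypes did not overlap, and they kept negative changes of -0.35, -0.27 and -0.25 with equal totals. Phf5a, a further SF3B subunit whose symbol is outside the families, had 253 and 310.2 normalized counts in KO against 633 and 606 in WT (-1.14, adjusted p = 8.22e-06, in the authors' deposited table). It was named after its values were seen, and its change with equal totals was -0.32.

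On the higher side, the smallest adjusted p was that of Son, a protein of nuclear speckles. Son had 6078 and 7575 normalized counts in KO against 4067 and 3880 in WT (0.78, DESeq2 adjusted p = 0.000149, in the authors' deposited table). Tra2a, an SR-like regulator, had 355 and 338 normalized counts in KO against 145 and 174 in WT (1.13, adjusted p = 0.000168, in the authors' deposited table). Ddx39b, the helicase that helps U2 bind and couples splicing to export, had 1838 and 2153 normalized counts in KO against 1250 and 983 in WT (0.84, adjusted p = 0.000248, in the authors' deposited table). All 3 were higher in both KO libraries. Esrp1, an epithelial splicing regulator, had 59.8 and 44.2 normalized counts in KO against 5.39 and 10.8 in WT (2.71, adjusted p = 0.000643, in the authors' deposited table) and was named after its values were seen. The 4 bile duct markers given above were higher in the same libraries, and their part in this value was not tested.

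The m6A antibody enriches fragments that carry the mark, and the authors deposited 1 list of peaks per genotype, so a peak has no replicates. Peaks were named by gene symbol, and positions are on mm10. The KO list holds 82 peaks in 48 members and the WT list 41 peaks in 24 members. The share of members with a peak was 48 of 66 in the KO list, beside 56.9% of genes of like mean, and 24 of 66 in the WT list, beside 26.9%. Both lists held a peak for 24 members (beside 24.2% of genes of like mean), the KO list alone for 24 (beside 32.7% of genes of like mean), the WT list alone for 0 (beside 2.69%), and neither for 18. The KO list is also the longer of the 2 over all genes, at 12290 peaks against 5586, and the depth of the IP libraries is unknown here. Peaks in a list thus do not show how much of a transcript is methylated. Enrichment is the authors' value per peak, taken as IP over input.

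By class, 8 of the 12 Snrp genes had peaks in the KO list only and 2 in both lists. SR proteins had 6 of 11 in the KO list alone and 3 in both. The hnRNPs had 10 of 18 in both lists and 3 in the KO list alone. The 3 U2AF genes had 2 in both lists and 0 in the KO list alone. Of the 24 members with peaks in both lists 1 was called higher and 6 lower, of the 24 with peaks in the KO list alone 1 higher and 4 lower, and of the 17 tested with none 3 higher and 3 lower. The median mean count of these groups was 948, 389 and 277, so members with peaks were the more abundant. Calls were not split by peaks for genes of like mean, so no tie between peaks and calls is read from these counts.

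**Figure D4:**
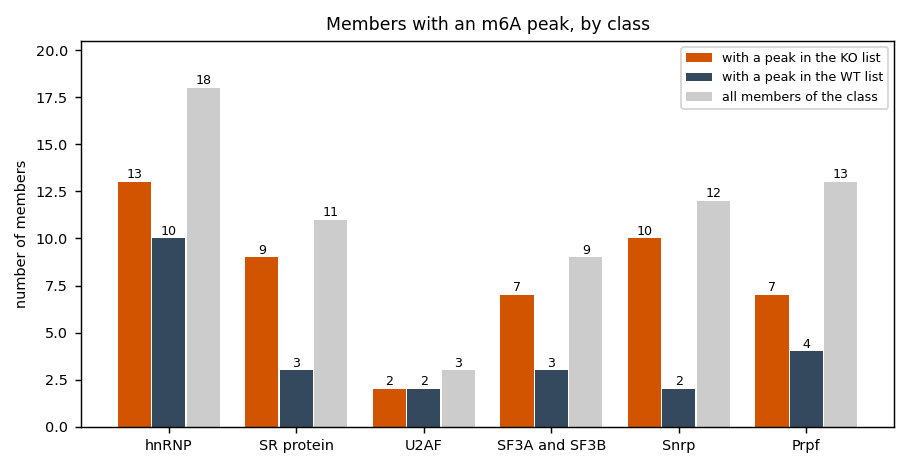
Number of members (vertical axis) with a peak in the KO list, with a peak in the WT list, and in all, for each class. The KO bar is higher than the WT bar in each class other than U2AF, where both are 2, and the gap is widest in Snrp, at 10 against 2.

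Within the KO list Hnrnpk (140), Sf3b1 (121), Prpf31 (115) and Snrpn (93.0) were among the 5 highest enrichments of members. Hnrnpk encodes a protein that binds runs of C, and its highest peak lies at chr13:58402438-58402486, outside the gene's WT peak. That WT peak, at chr13:58402065-58402113 with an enrichment of 43.6, is covered by another KO peak, with an enrichment of 75.3. The Sf3b1 peak, at chr1:55019242-55027428, has 2 blocks and starts 73 bases from the gene start, and the WT list has no peak for Sf3b1. Snrpn has 1 KO peak and no WT peak. Prpf4b, a kinase of the tri-snRNP, had the most peaks of members in the KO list alone, with 6 peaks of 4.18 to 21.7. Next came Srsf11 with 3 peaks and Sf3a3 with 2, and the other 21 such members had 1 peak each.

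Within the WT list the highest enrichments were those of Hnrnpu (575), Prpf31 (329), Hnrnpul2 (326), Hnrnpa0 (318) and Hnrnpul1 (315). The Hnrnpu peak lies at chr1:178337141-178337288, and the KO list covers it with a wider peak at chr1:178337091-178337784 with an enrichment of 8.71. The Prpf31 peak at chr7:3630036-3630685 is covered in the KO list from the same start with an enrichment of 115. At chr19:8820298-8820396 both lists held the same Hnrnpul2 peak, with 17.1 in KO and 326 in WT. The peak of Hnrnpa0 at chr13:58127318-58127366 overlaps no KO peak, although the KO list has 1 at chr13:58127219-58127316 with an enrichment of 16.9. The Hnrnpul1 peak at chr7:25754622-25754720 is covered by a KO peak of 22.0. The lists were called separately, so these values stand side by side and no change is read from them.

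Of the 41 WT peaks of members, 33 (80.5%) shared at least 1 base with a KO peak on the same strand, beside 70.9% of WT peaks of genes of like mean, and 30 shared at least 50% of their bases. For each of these 33 WT peaks the KO peak sharing the most bases was taken. Its median was 249 covered bases against 50 for the WT peaks, beside 246 against 50 in genes of like mean. A KO peak enters once for each WT peak it matches, and wide peaks overlap more readily. Over all 82 KO and 41 WT peaks of members the medians were 122.5 and 50, beside 99 and 49 in genes of like mean. Of the 82 KO peaks 25 overlapped a WT peak, a further 25 lay elsewhere in a member with a WT peak, and 32 lay in members with none.

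Peaks of members lay at gene starts and gene ends in the following shares. Within 300 bases of the gene start lay 25 of 82 KO peaks (30.5%, beside 25.8% of KO peaks of genes of like mean) and 11 of 41 WT peaks (26.8%, beside 24.3%). Within 1000 bases of the gene end lay 7 KO peaks (8.54%, beside 17.9%) and 4 WT peaks (9.76%, beside 22.6%). Positions are along the genomic span of the gene, with introns.

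**Figure D5:**
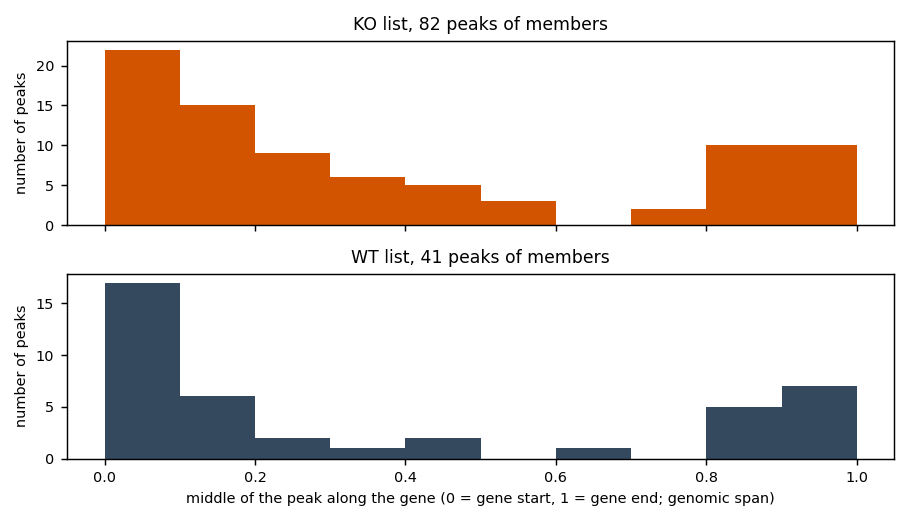
Number of member peaks (vertical axis) by position along the gene from start (0) to end (1), with the KO list above and the WT list below. The first of 10 equal bins holds 22 of 82 KO peaks and 17 of 41 WT peaks, and the last bin holds 10 and 7.

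Stretches of at most 30 bases that lie under a peak within the first 50 bases from a RefSeq start were found in 8 members, and 4 are given, as the places where a peak and a start meet and where GGAC, the letters most often cited around m6A, can be read (capitals). The other 4, Sf3a3, Snrpd2, Snrpd3 and Snrpg, held no GGAC in theirs, under KO peaks alone. Where a peak covers more bases, the stretch with the most GGAC is given. They are at chr11:50378300-50378329 (plus), chr13:58402071-58402100 (minus), chr1:178337766-178337784 (minus) and chr11:116853065-116853094 (minus), from RefSeq (GRCm38.p6).
Hnrnph1: ctgtgtGGACgccaGGACcaccgaagGGAC
Hnrnpk: aggcggcgcggccgggaggcaacggcGGAC
Hnrnpu: GGACgttgcgtgctcgctc
Srsf2: gcttagttgctgctcaggcgtccgtcaggt

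Hnrnph1, which like Hnrnph2 binds runs of G, held GGAC 3 times in that stretch, under peaks with an enrichment of 29.4 in the KO list and 169 in the WT list. Srsf2, an SR protein of exonic enhancers, held none in a stretch under peaks of 36.1 in the KO list and 43.1 in the WT list. Hnrnpk and Hnrnpu held 1 each, the second under a KO peak alone. GGAC was found in the first 50 bases of 9 of 57 members (15.8%), beside 19.0% of all starts. These shares take 1 start per gene, the one nearest the gene boundary. The stretches were sought at each RefSeq start, and the 4 given lie further inside their genes. The shares may thus describe other starts than those shown. The 4 members of this paragraph were chosen after their values were seen.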

How the data were processed

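Liver RNA of 8 libraries was used. Per the submitters' processing notes, reads were processed with HISAT2 2.1.0 and DESeq2 1.18.1 on mm10. Not given in the sources used here are the read counter, the annotation, the peak caller and whether counting used strand. In the deposited table each gene has a mean signal (counts over size factors, averaged over the 4 input libraries), a log2 fold change with its error, a Wald score, and the authors' p-value before and after adjustment. In the deposited peak lists enrichment is taken as a ratio of IP over input and the second value as a p-value.

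The numerator is not stated for the fold change. It was read as KO over WT: of 347 genes with a log2 value above 2 and a mean of at least 100, 156 had only KO peaks and 0 only WT peaks, and of 403 below -2 these were 30 and 46.

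The digits of the deposited means gave back whole read counts per library for 15949 genes (98.9%), all 66 members included. The 181 genes with a mean above 10000 and 3 others were left out of values per library. In the estimated totals they entered at the mean of their genotype, from the deposited mean and change, times the library's size factor. Size factors were 1.25 and 1.18 in KO and 0.927 and 0.743 in WT. Refitted log2 changes of the members differed from the deposited ones by at most 7.18e-07, though the deposited change guided the search above a mean of 100. Recovered counts cannot be tied to replicate numbers. Recovery and limma were tested on simulated data.

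Calls are the authors' DESeq2 calls. As alternatives limma 3.58.1 (R 4.3.3) was fitted with a trend to log2 of normalized counts plus 1 at the authors' size factors and at equal total counts, with another pseudocount, a mean filter and each library left out. A 2 against 2 exact permutation test cannot go below 0.333 (two-sided). Overlaps of peaks were counted block by block on the same strand in Python 3.11.15 with pandas 2.3.3. The 105 other splicing genes and the marker lists are lists of textbook members.

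Values are given for, per class, called members with the smallest adjusted p (up to 4 each way) and the largest change each way, for the 5 highest enrichments per list (1 is not reported here), for up to 5 members with most peaks in the KO list alone, and for up to 3 other splicing genes each way. Further genes with values were named after those values were seen. Members and lists were chosen with earlier results of these data known.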

Additional observations from a re-analysis of the deposited data

How the results depend on the processing

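Against 5 members higher and 13 lower in KO, DESeq2 at an adjusted p under 0.01 left 2 and 8, and a change of at least 2-fold 1 and 1. Of genes of like mean 27.8% changed at least 2-fold. Shares of all genes by DESeq2 at an adjusted p under 0.01 or an unadjusted p under 0.05 were not counted here. By limma at the authors' size factors the members' counts were 9 and 20. With a pseudocount of 0.5 they were 9 and 19, and with a mean of at least 10 they were 9 and 20. Leaving out 1 library at a time gave medians of -0.22 to -0.15. The library left alone in a genotype is then assumed to vary like the other genotype, so these fits do not decide a call. The median of -0.23 became 0.60 with equal totals, where 44 members were higher and 0 lower. That scaling took the members with a negative change from 43 to 3, and among the named ones turned those of Hnrnpl (0.12), Hnrnph2 (0.12), Hnrnpul2 (0.33), Prpf8 (0.27), Sf3b1 (0.24), Sf3b2 (0.30), Snrpd2 (0.22), Srsf5 (0.29), Srsf4 (0.28), U2af1 (0.027), U2af2 (0.77), Hnrnph3 (0.04) and Snrpe (0.16). Equal totals give each library the same sum by construction, and the cause of the difference between scalings was not tested. Of the peak results, the members with a peak in the upper 50% of a list by enrichment were 35 (KO) and 20 (WT). An authors' p under 0.01 left 48 and 24. No paired analysis was possible because recovered libraries carry no replicate number. With 2 libraries per genotype, and 1 peak list each, precision is limited by their number.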

Other observations

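Ratios of normalized counts between 2 members in the same library do not depend on how libraries are scaled, though they are not ratios of molecules, since genes differ in length. The following pairs were chosen after their values were seen and are given as values with no test. Within the SF3B complex, the ratio of Sf3b3, the scaffold subunit, to Sf3b1, the large subunit at the branch helix, was 0.698 and 0.686 in KO A and KO B, against 0.258 and 0.374 in WT A and WT B. The ratio of Sf3b3 to Sf3b6, the small branch-point subunit, was 4.30 and 4.43 in KO, against 1.34 and 1.93 in WT. In both pairs the 2 KO libraries lay close together and above both WT libraries. Between 2 proteins of the tri-snRNP, Prpf4 and Prpf6, the ratio was 0.613 and 0.647 in KO, against 0.177 and 0.230 in WT.

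Pairs of splice-site and exon-binding proteins were also unequal between genotypes. The ratio of U2af1, the small subunit, to U2af2, the large one, was 0.196 and 0.264 in KO, against 0.347 and 0.416 in WT, and that of U2af1l4 to U2af2 was 0.146 and 0.191 in KO, against 0.347 and 0.336 in WT. Both ratios to the large subunit were lower in KO, with no overlap. The ratio of Hnrnpa0 to Hnrnpl was 0.848 and 0.865 in KO, against 0.256 and 0.351 in WT. In the Sm ring, Snrpd1 over Snrpd2 was 0.250 and 0.271 in KO, against 0.0852 and 0.136 in WT, with Snrpd1 at few reads. Srsf7 over Srsf5 was 0.279 and 0.239 in KO, against 0.105 and 0.145 in WT. A ratio shows unequal change and not which of the 2 genes changed.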
